A study of Mus musculus with 6 samples.

Results

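The matrix metalloproteinases (Mmp genes), the Adamts proteases and their tissue inhibitors (Timp genes) were followed in the main olfactory epithelium (MOE), where the odour-sensing neurons of the nose sit. Members were chosen by gene symbol alone: 42 of the 31319 genes in the counted table, made up of 19 Mmp, 19 Adamts and 4 Timp genes. Polyadenylated RNA came from male C57BL/6 mice aged 5 months. A knockdown of the microRNAs miR-200b and miR-200a defined 3 libraries (labelled miR-200b/a KD, here KD), and 3 libraries were controls (NC). Both groups shared strain, sex, age and tissue. The labels say neither how the knockdown was made, nor in which cells it acts, nor what NC mice received. Whether the libraries are separate mice is not stated either, so the p-values rest on the spread among these libraries only, and that spread may be technical.

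Mmps and Adamts proteases are zinc-dependent enzymes that are made as inactive precursors and cut proteins of the extracellular matrix and of the cell surface once a prodomain has been removed. Timps bind the active site of many of these enzymes and block it, and the enzymes blocked differ between Timps. In the nasal lining, neurons are renewed through life above a basal lamina and a collagen-rich lamina propria, with glands, blood vessels, immune cells and bone close by, and each of these tissues makes its own set of matrix proteases.

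The libraries differed in cell content, and KD-2 stood apart. Total counts lay between 15704791 and 17618540. The locus of Mir200a had 3 to 54 counts in KD and 84 to 200 in NC, and that of Mir200b 0 to 28 against 47 to 76. Neither passed edgeR's threshold (adjusted p = 0.309 and 0.288), and poly(A) reads there reflect precursors, not mature microRNA. Levels are given as counts per 1000000 (CPM), normalised between libraries by TMM factors. A list of 10 mature olfactory neuron markers reached 3493, 72.5 and 4357 CPM across KD-1, KD-2 and KD-3, against 11788, 8843 and 7427 CPM across NC-1, NC-2 and NC-3, so the defining markers of the labelled tissue were nearly absent from KD-2. NC-1 had the lowest sum of 8 neutrophil markers (1426 CPM, against 7249 to 34026 in the other libraries) and of 8 macrophage markers (111 CPM against 199 to 495). Values without KD-2 and NC-1 are therefore given beside many of the results. In bulk tissue, fewer cells of a type and less RNA per cell cannot be told apart.

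No member passed the test, and the values leaned towards KD. Of the 42 members, 35 had enough counts to be tested with edgeR's quasi-likelihood test, adjusted over all 18444 genes tested. At adjusted p under 0.05 there were 0 members and 0 genes in the whole table (0%), the smallest adjusted p being 0.276 for both. A fitted log2 fold change of KD over NC above 0 was found for 26 of the 35 tested members (74.3%, against 50.6% of all tested genes), with a median of 0.35 against 0.01. At an unadjusted p under 0.05 there were 5 members higher in KD (Mmp13, Mmp19, Mmp2, Timp1 and Timp4; 14.3%, against 8.7% of all genes) and 1 lower (Mmp16; 2.86%, against 9.25%). These counts and their background moved with single libraries. Without KD-1 there were 3 members higher and 0 lower (8.33% and 0%, against 4.94% and 5.29% of all genes), without NC-2 also 3 and 0 (8.57% and 0%, against 5.02% and 4.11%), and without NC-3 8 and 2 (22.2% and 5.56%, against 12.2% and 9.47%). The 3 KD values lay above all 3 NC values for 7 tested members (20%, against 15.3%) and below them for 3 (8.57%, against 18.6%). DESeq2 called 1 member, Mmp19, which was higher in KD, and its background was 0.821% of genes higher and 1.07% lower. limma-voom called none. Without KD-2 and NC-1 the median of the tested members was 0.16.

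**Figure D1:**
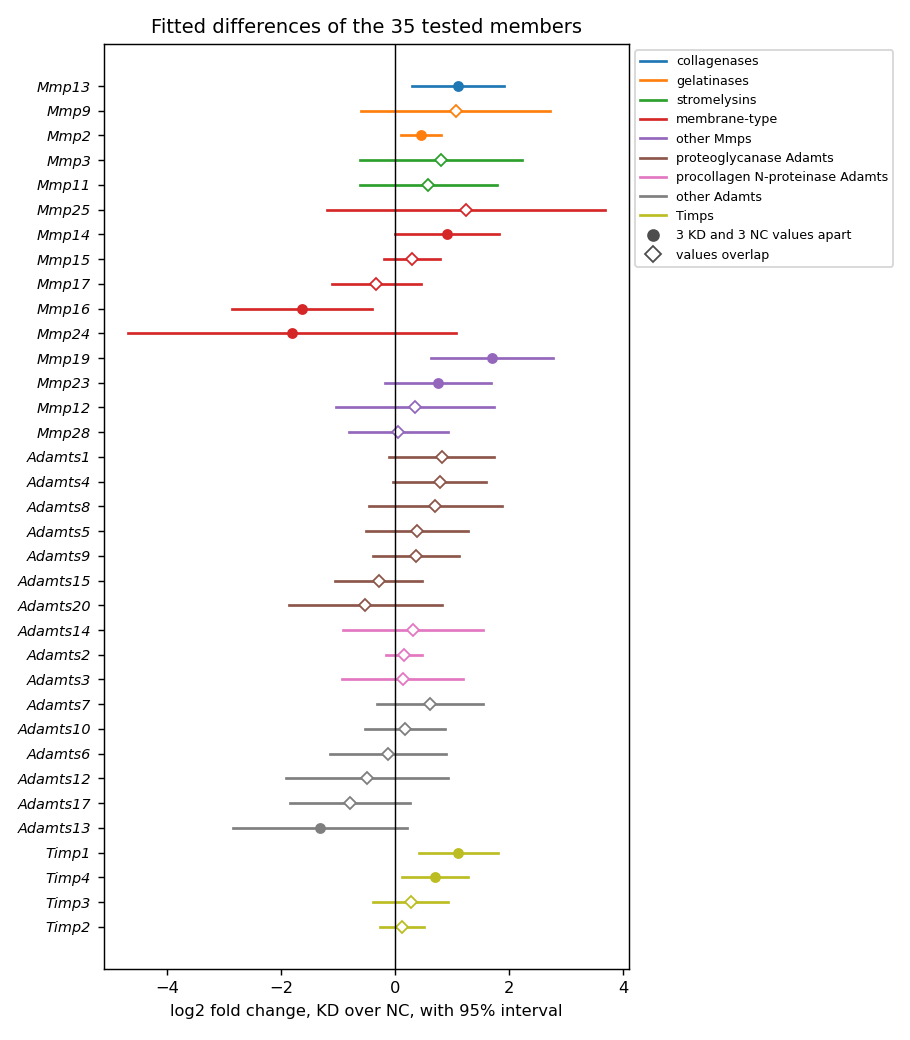
Fitted log2 fold change of KD over NC (x axis) with its 95% interval for the 35 tested members, coloured by role; filled circles mark members whose 3 KD and 3 NC values do not overlap, and open diamonds those that overlap. Most points lie right of 0, with Mmp19 farthest at 1.70, while Mmp24 (-1.82) and Mmp16 (-1.64) lie farthest left.

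Per length, Mmp13 and Timp2 were the most abundant members. Levels between genes were compared as CPM per kilobase of annotated exon (CPM per kb), averaged over the 6 libraries. Mmp13 stood at 114 CPM per kb with a range of 44.6 to 192, and Timp2 at 73.9 with a range of 67.6 to 83, so their ranges overlapped. Mmp2 followed at 46.6 (38.2 to 59.5), below every Timp2 value. Mmp9 at 37.9 (12.5 to 85.5), Mmp15 at 35.7 (31.1 to 49.4), Timp1 at 26.8 (12.2 to 47.3) and Mmp14 at 22.8 (9.08 to 41.2) overlapped with Mmp2 and with each other. The most abundant Adamts gene per length was Adamts1, at 4.06 CPM per kb (2.51 to 7.08). It was below Timp3 (11.6) and Mmp23 (10.4) in the mean, with ranges that overlapped those of both.

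Summed over the 19 Mmp genes, levels were 368, 411 and 305 CPM per kb in the KD libraries, in the order of their numbers, and 156, 221 and 244 in the NC libraries, so every KD library was above every NC library. The 4 Timps summed to 136, 126 and 123 CPM per kb in KD and 99.5, 102 and 97.7 in NC, again without overlap. The Adamts genes summed to 21.3, 22.2 and 16 CPM per kb in KD and 16.2, 16.3 and 15.5 in NC, where KD-3 lay within the NC range. The ratio of Timp to Mmp sums was 0.369, 0.307 and 0.404 in KD and 0.638, 0.461 and 0.4 in NC, and KD-3 overlapped NC-3. These sums rest on a few genes. Mmp13 alone gave 192, 138 and 137 CPM per kb in KD and 44.6, 99.1 and 73.3 in NC. Without Mmp13 the Mmp sum of KD-3 would not lie above that of NC-3. In plain CPM, not scaled by length, Mmp13 gave 24.5% to 41.8% of the Mmp sum in KD and 19.9% to 33.5% in NC.

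**Figure D2:**
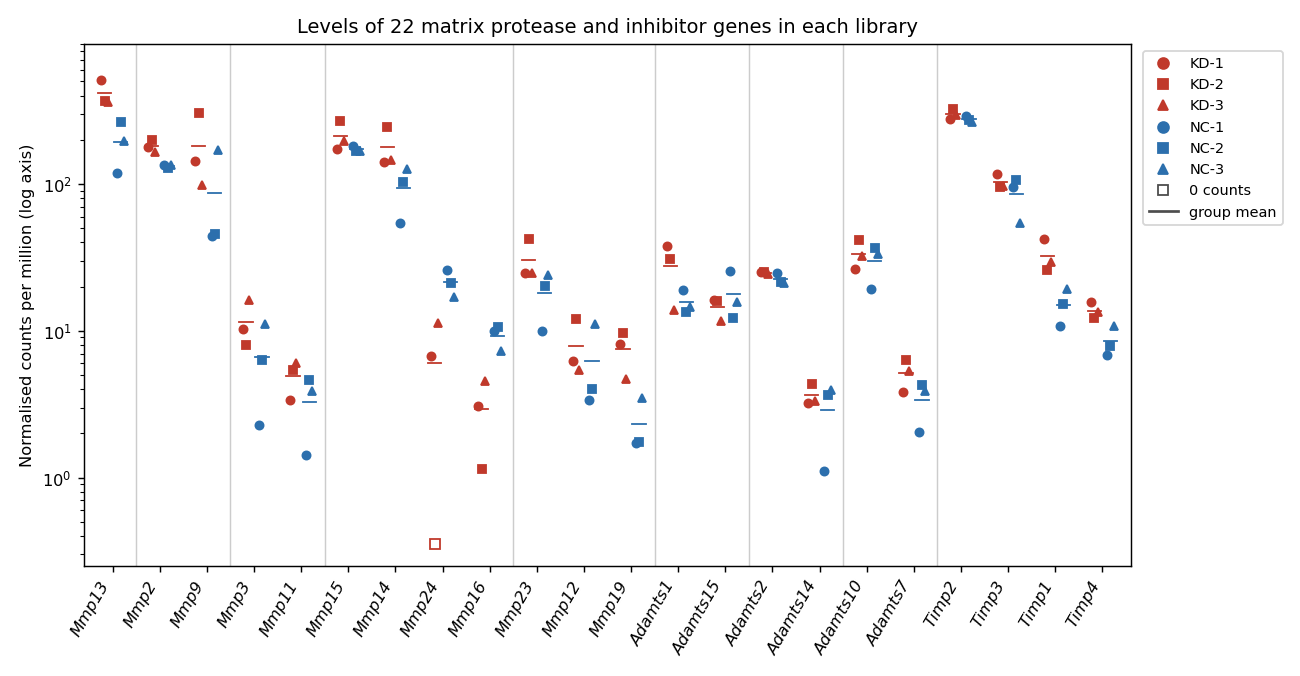
Normalised CPM (log axis) of 22 members in each library, ordered by role, with KD in red, NC in blue, a symbol for each replicate and short lines for the means of each group (n = 3); the open square marks 0 counts. Mmp13, Mmp19 and Timp1 have all KD points above all NC points, Mmp16 and Mmp24 have them below, and Mmp9 overlaps through NC-3.

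Mmp13, collagenase 3, is the main fibrillar collagenase of rodents and is made by bone-forming cells and cartilage among others (chromosome 9, 7272514 to 7283331, build GRCm38, plus strand). Its levels were 514, 369 and 365 CPM in KD and 119, 265 and 196 CPM in NC, again in numbered order. Every KD library was above every NC library, with NC-1 lowest. The means were 416 ± 84.6 CPM in KD and 193 ± 72.8 CPM in NC (SD, n = 3 each). That is a log2 fold change of 1.10 (SE 0.333, 95% interval 0.30 to 1.91, edgeR adjusted p = 0.276). Without KD-2 and NC-1 it was 0.96 (SE 0.26, adjusted p = 0.26). A fit that also held the mean log2 level of the 10 mature neuron markers in each library, called the neuron covariate below, gave 1.19 (SE 0.42). No member passed edgeR's threshold in that fit, the smallest adjusted p of a member being 0.851. A list of 8 bone and cartilage markers summed to 203 to 252 CPM in KD and 184 to 199 CPM in NC, and 3 of its 8 members had a log2 fold change above 0. The collagen genes Col1a1 and Col1a2 stood at 1534 ± 674 against 1452 ± 500 CPM and at 1300 ± 515 against 1208 ± 365 CPM. The part of these cells in the Mmp13 difference was not tested.

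Mmp13 lies in a cluster of Mmp genes on chromosome 9. The 6 cluster members analysed here, Mmp13, Mmp12, Mmp3, Mmp10, Mmp27 and Mmp7, lie between 7272514 and 7699585 on the plus strand. Only Mmp13, Mmp12 and Mmp3 had enough counts to be tested, and all 3 had log2 fold changes above 0. Promoters of this cluster are textbook sites of AP-1, the Fos and Jun dimer. The RefSeq promoter table (GRCm38.p6, 250 bases before to 50 after each start) held 28 of the 42 members. The AP-1 motif TGANTCA, which reads the same on both strands, was found in 5 of their 31 promoter windows and in 7.81% of all 32851 windows. The 5 windows belonged to 5 cluster genes, shown because they share this motif, with 60 bases each on the plus strand and the motif in capitals.
Mmp13, chr9:7272452-7272511: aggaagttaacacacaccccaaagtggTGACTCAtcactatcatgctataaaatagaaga
Mmp12, chr9:7347303-7347362: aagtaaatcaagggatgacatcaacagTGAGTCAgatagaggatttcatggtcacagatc
Mmp3, chr9:7445749-7445808: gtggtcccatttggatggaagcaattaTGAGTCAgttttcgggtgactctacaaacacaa
Mmp10, chr9:7502252-7502311: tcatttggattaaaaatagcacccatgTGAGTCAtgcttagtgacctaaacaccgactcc
Mmp7, chr9:7692000-7692059: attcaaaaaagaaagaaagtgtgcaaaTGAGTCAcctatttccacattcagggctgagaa
The motif began 35 bases before the start in Mmp13, 44 in Mmp12, 46 in Mmp3 and 63 in Mmp10 and Mmp7. The Mmp12 window belongs to a start inside the gene, downstream of its first annotated start. A motif match is a description of these letters and not a measured binding site.

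Mmp3, stromelysin 1, cuts proteoglycans and laminin and activates other Mmps. It stood at 10.3, 7.97 and 16.3 CPM in KD and 2.28, 6.33 and 11.2 CPM in NC, so the groups overlapped through NC-3 (log2 fold change 0.81, SE 0.587, edgeR adjusted p = 0.427). It was 0.63 without KD-2 and NC-1, 0.40 without NC-1, 0.47 without KD-3 and 1.42 without NC-3. Mmp12, the macrophage elastase, stood at 6.19, 12 and 5.4 CPM in KD and 3.39, 3.98 and 11.2 CPM in NC. It was highest in KD-2 and NC-3 and had a log2 fold change of 0.35 (SE 0.57), which turned to -0.37 without KD-2 and NC-1 and to -0.07 without KD-2 alone. Mmp10, stromelysin 2, had 15, 3 and 1 counts in KD and 0, 0 and 6 in NC. Mmp27 had 2, 5 and 1 counts against 0, 0 and 2, and Mmp7, matrilysin, had 2, 2 and 3 against 0, 1 and 0. These 3 were too low to test. Mmp11, stromelysin 3, which unlike most secreted Mmps leaves the cell already activated by furin, lies outside the cluster and stood at 4.94 ± 1.38 against 3.29 ± 1.67 CPM (fitted log2 fold change 0.58, SE 0.495). This value was 0.22 without NC-1 and 0.18 without KD-2 and NC-1.

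Of the gelatinases, which cut denatured collagen and the collagen of basement membranes, Mmp2 separated the groups and Mmp9 did not. Mmp2 (chromosome 8, 92827291 to 92853420) is made mostly by fibroblasts and other stromal cells. It stood at 178, 201 and 166 CPM in KD and 135, 129 and 134 CPM in NC. The NC values lay close together, and the lowest KD value was above all of them. The log2 fold change was 0.45 (SE 0.143, 95% interval 0.11 to 0.80, edgeR adjusted p = 0.276). It was 0.41 without KD-2 and NC-1 and 0.33 (SE 0.17) with the neuron covariate. A list of 8 fibroblast markers summed to 4923, 2374 and 4150 CPM in KD and 4819, 3306 and 2833 CPM in NC, with a median log2 fold change of 0.09 and 6 of 8 members above 0. Col1a1 and Col1a2 made up most of this sum, which overlapped between groups. Pdgfra and Pdgfrb, receptors that mark fibroblasts and pericytes, had all KD values above all NC values. That was 25% of the list, against 15.3% of all tested genes. They stood at 98.9 ± 17.5 against 56.5 ± 8.79 CPM and at 112 ± 22.1 against 81.4 ± 9.65 CPM. Dcn and Postn of the same list went the other way in their means. Dcn stood at 196 ± 41.4 against 285 ± 59.4 CPM and Postn at 147 ± 49.4 against 165 ± 49.1 CPM. These genes were named after their values were seen, and the part of stromal cells in the Mmp2 difference was not tested.

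Mmp9 (chromosome 2, 164940780 to 164955850) is stored in neutrophil granules and is also made by osteoclasts, the bone-resorbing cells. It stood at 144, 302 and 98.1 CPM in KD and 44.3, 45.4 and 171 CPM in NC. The groups overlapped through NC-3, which exceeded 2 of the KD libraries, and the log2 fold change of 1.06 (SE 0.681, edgeR adjusted p = 0.384) had a 95% interval of -0.59 to 2.71. It was 2.02 without NC-3, 0.50 without KD-2 and 0.17 without KD-2 and NC-1. With the neuron covariate it was 0.12 (SE 0.69). Mmp25, a membrane-anchored Mmp known from neutrophils, had the same order at the top and bottom: 9.17, 31.5 and 11.2 CPM in KD against 1.05, 3.63 and 17.2 CPM in NC. The fit put Mmp25 at 1.24 on the log2 scale, with a 95% interval of -1.20 to 3.69 (edgeR adjusted p = 0.466). Neutrophil markers were set beside both. All 8 markers were detected in every library, and their sum was 13351 to 34026 CPM in KD and 1426 to 9034 CPM in NC. Most of that sum was Ltf, lactoferrin, which nasal glands also make. Without Ltf, a choice made after its counts were seen, the other 7 markers summed to 1448, 3710 and 1041 CPM in KD and 16.6, 102 and 1657 CPM in NC. KD-2 and NC-3 were the highest libraries for this sum, for Mmp9 and for Mmp25, and NC-1 the lowest for all 3. Not every marker followed the sum. Elane, Mpo and Camp, named after their values were seen, were highest in KD-1 (18.5, 20.8 and 52.3 CPM), above KD-2 (9.19, 12.7 and 18.8 CPM). The 6 osteoclast markers summed to 190, 132 and 104 CPM in KD and 130, 89.8 and 82.5 CPM in NC, with 5 of 5 tested log2 fold changes above 0 (median 0.77), and the groups overlapped through NC-1. The part of neutrophils and osteoclasts in these differences was not tested.

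**Figure D3:**
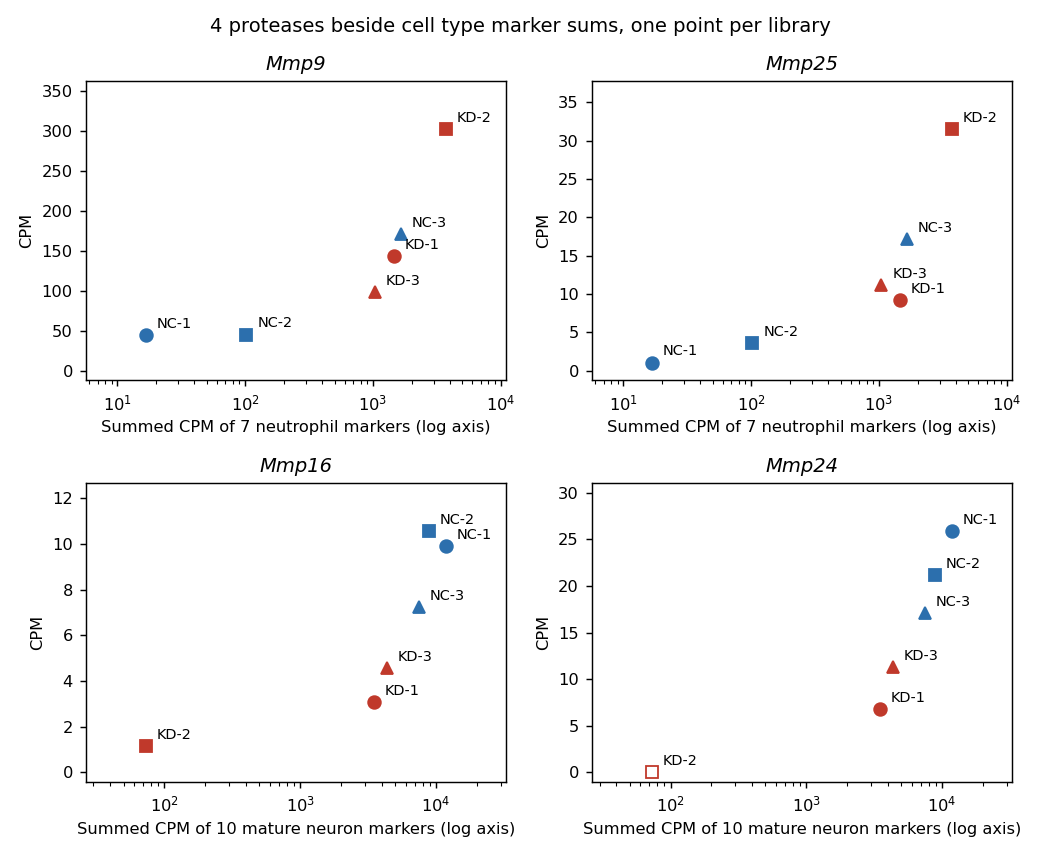
CPM of Mmp9 and Mmp25 against the summed CPM of 7 neutrophil markers (upper panels, log x axis) and of Mmp16 and Mmp24 against the summed CPM of 10 mature olfactory neuron markers (lower panels, log x axis), with 1 point per library, KD in red, NC in blue and an open square for 0 counts. KD-2 is at the upper right for Mmp9 and Mmp25 and at the lower left for Mmp16 and Mmp24.

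The membrane-type Mmps, which act at the cell surface, went both ways. For Mmp16 and Mmp24 all KD values lay below all NC values (33.3% of the 6, against 18.6% of all tested genes). For Mmp14 all lay above (16.7%, against 15.3%), and Mmp15, Mmp17 and Mmp25 overlapped. Mmp16, membrane-type 3 Mmp (chromosome 4, 17852893 to 18119145), stood at 3.09, 1.15 and 4.57 CPM in KD and 9.93, 10.6 and 7.23 CPM in NC. The fitted log2 fold change was -1.64 (SE 0.506, 95% interval -2.87 to -0.41, edgeR adjusted p = 0.276). It was -1.18 (SE 0.35) without KD-2 and NC-1 and -0.88 (SE 0.34) with the neuron covariate. Mmp24, membrane-type 5 Mmp, is best known from the nervous system (chromosome 2, 155775342 to 155818366). It had 116, 0 and 205 counts in KD and 420, 415 and 305 in NC, or 6.77, 0 and 11.3 CPM against 25.9, 21.2 and 17.1 CPM. The 0 of KD-2 is compatible with as many as 3 counts (0.23 CPM). The log2 fold change of Mmp24 was -1.82 (SE 1.19, adjusted p = 0.389), and it was -1.22 (SE 0.32, adjusted p = 0.3) without KD-2 and -1.05 (SE 0.31) without KD-2 and NC-1. With the neuron covariate it turned to 0.56 (edgeR adjusted p = 0.94), a fit that includes the 0 counts of KD-2. Both genes followed the order of the neuron sum in the KD libraries, where KD-3 was highest and KD-2 lowest. In the NC libraries Mmp24 followed it too, while Mmp16 did not and was highest in NC-2. The order of Mmp24 over all libraries was also that of a list of 6 ensheathing glia markers. These glia markers summed to 72.3, 50.6 and 87.4 CPM in KD and 157, 117 and 93.1 CPM in NC, with 6 of 6 log2 fold changes below 0 (median -0.55). The 10 neuron markers all had log2 fold changes below 0, with a median of -1.80. The neuron sum was lower in every KD library than in every NC library, so the covariate fit cannot separate neuron content from group. The part of neurons and glia in these differences was not tested.

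Mmp14, membrane-type 1 Mmp, is the pericellular collagenase that activates pro-Mmp2 in a complex with Timp2 (chromosome 14, 54431612 to 54445364). Its levels were 141, 246 and 146 CPM in KD and 54.1, 103 and 126 CPM in NC, with NC-1 lowest and KD-2 highest. The log2 fold change was 0.91 (SE 0.378, 95% interval -0.0042 to 1.83, edgeR adjusted p = 0.279). Without KD-2 and NC-1 it was 0.35 (SE 0.20), and with the neuron covariate 0.41 (SE 0.38). Mmp14 had 0.793, 1.22 and 0.881 counts per Mmp2 count in KD and 0.402, 0.8 and 0.943 in NC, so the ratio overlapped between groups. Mmp15, membrane-type 2 Mmp, stood at 172, 267 and 198 CPM in KD and 183, 168 and 169 CPM in NC (log2 fold change 0.29, SE 0.203, or 0.12 without KD-2). Mmp17, a glycolipid-anchored Mmp, stood at 4.54 ± 1.46 against 5.70 ± 0.649 CPM (fitted log2 fold change -0.33, SE 0.319).

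Among the remaining Mmps, Mmp19 had the highest fold change of all tested members. Mmp19 (chromosome 10, 128790910 to 128800824) is a secreted Mmp that cuts basement membrane proteins. It had 140, 127 and 85 counts in KD and 28, 34 and 62 in NC, or 8.18, 9.73 and 4.68 CPM against 1.73, 1.74 and 3.48 CPM. The lowest KD library, KD-3, lay above the highest NC library, NC-3. The log2 fold change was 1.70 (SE 0.441, 95% interval 0.63 to 2.77), with edgeR adjusted p = 0.276 and DESeq2 adjusted p = 0.0366. The authors' deposited table gives it a log2 fold change of 1.67 and an unadjusted p of 0.000404. Without KD-2 and NC-1 the edgeR value was 1.32 (SE 0.47, adjusted p = 0.34), and with the neuron covariate 1.28 (SE 0.48). Its exons share 789 bases (22.3%) with Tmem198b and 212 (6%) with Gm47093, both on the opposite strand, and no source used here gives the strand setting of the counting. Tmem198b stood at 6.09 ± 0.935 against 7.04 ± 0.833 CPM, the opposite direction. Marker sums of 3 other cell types ranked the 6 libraries as Mmp19 did, from KD-2 at the top to NC-1 at the bottom. So did the sum of the 8 neutrophil markers, Ltf included. The other cell type lists ranked the libraries differently. The fibroblast sum was lowest in KD-2 and the osteoclast sum highest in KD-1. The sum of 6 B and plasma cell markers was higher in NC-3 (6141 CPM) than in KD-3 (4742 CPM). The last ranks of Mmp19 were nearly tied, at 1.74 CPM in NC-2 and 1.73 CPM in NC-1. The 8 macrophage markers summed to 283 to 495 CPM in KD and 111 to 244 CPM in NC, with 8 of 8 log2 fold changes above 0 (median 0.95). The 6 endothelial markers summed to 280 to 496 against 115 to 237 CPM, with 6 of 6 above 0 (median 1.05). The 6 markers of horizontal basal cells, the reserve stem cells of the epithelium, summed to 756 to 1268 against 193 to 618 CPM, with 6 of 6 above 0 (median 1.32). For the macrophage, endothelial and horizontal basal sums every KD library was above every NC library, as for Mmp13, Mmp14, Mmp2, Mmp23, Timp1 and Timp4. The part of these cells in the differences of any of these genes was not tested.

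Mmp23, a small Mmp held in the membrane by its prodomain, stood at 24.6, 42.2 and 24.6 CPM in KD and 9.99, 20.3 and 23.9 CPM in NC. KD-1 and KD-3 lay only just above NC-3. Its log2 fold change of 0.75 (SE 0.384, edgeR adjusted p = 0.315) was 0.18 (SE 0.19) without KD-2 and NC-1. With the neuron covariate it was 0.24 (SE 0.39). Mmp28, epilysin, stood at 3.96 ± 1.28 against 3.80 ± 0.755 CPM, a log2 fold change of 0.06 with a 95% interval of -0.81 to 0.92. Mmp21 had 3, 0 and 0 counts against 2, 1 and 0 and was too low to test.

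The Adamts proteases are secreted enzymes with thrombospondin repeats. Of 19 genes, 16 were tested, 10 with a log2 fold change above 0 (62.5%, against 50.6% of all genes) and 6 below, with a median of 0.16. No tested Adamts gene had all KD values above all NC values (0%, against 15.3% of all genes), and 1, Adamts13, had them below (6.25%, against 18.6%). The proteoglycanases, which cut aggrecan, versican and related core proteins, had 5 of 7 members above 0. Adamts1 (chromosome 16, 85793827 to 85803113) stood at 37.5, 31 and 13.9 CPM in KD and 19, 13.3 and 14.5 CPM in NC. KD-1 and KD-2 were above all NC libraries and KD-3 was not (log2 fold change 0.82, SE 0.38, edgeR adjusted p = 0.294). Adamts4 had the same arrangement, at 8.18, 7.35 and 4.24 CPM against 3.39, 3.47 and 4.6 CPM (fitted log2 fold change 0.78, SE 0.336). Adamts15 stood at 14.6 ± 2.45 against 17.8 ± 6.97 CPM. Its log2 fold change of -0.29 (SE 0.313) was 0.02 without KD-2 and NC-1. Adamts5, Adamts8 and Adamts9 had log2 fold changes of 0.38, 0.70 and 0.37 and Adamts20 one of -0.52, each with an interval that spans 0.

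The procollagen N-proteinases, which trim new fibrillar collagen, lay close to 0. Adamts2 varied little, at 25.2, 25 and 24.5 CPM in KD and 24.7, 21.5 and 21.1 CPM in NC. On the log2 scale the difference, 0.15, had a 95% interval of -0.17 to 0.47. Adamts14 stood at 3.63 ± 0.641 against 2.90 ± 1.56 CPM (fitted log2 fold change 0.32, SE 0.506, or -0.20 without KD-2 and NC-1) and Adamts3 at 0.755 ± 0.278 against 0.683 ± 0.21 CPM.

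Of the other Adamts genes, Adamts10, which acts on fibrillin microfibrils, was the most abundant. It stood at 26.4, 41.8 and 32.6 CPM in KD and 19.4, 36.6 and 33.5 CPM in NC (log2 fold change 0.17, SE 0.291), and without KD-2 and NC-1 its value was -0.22 (SE 0.2). Adamts7, a protease of cartilage oligomeric matrix protein, stood at 5.19 ± 1.26 against 3.40 ± 1.2 CPM (fitted log2 fold change 0.61, SE 0.383), a difference of 0.34 without NC-1 and 0.20 without KD-2 and NC-1. Adamts13, the plasma protease of von Willebrand factor, had 4, 1 and 10 counts in KD and 10, 18 and 13 in NC, or 0.287 ± 0.242 against 0.755 ± 0.153 CPM. Adamts17 and Adamts12 had log2 fold changes of -0.80 (SE 0.433) and -0.50 (SE 0.586), and Adamts6 one of -0.13. Adamts18 had 5, 2 and 7 counts against 15, 19 and 9, Adamts16 had 6, 0 and 3 against 7, 4 and 5, and Adamts19 had 1, 1 and 0 against 0, 0 and 1. These 3 were too low to test.

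**Figure D4:**
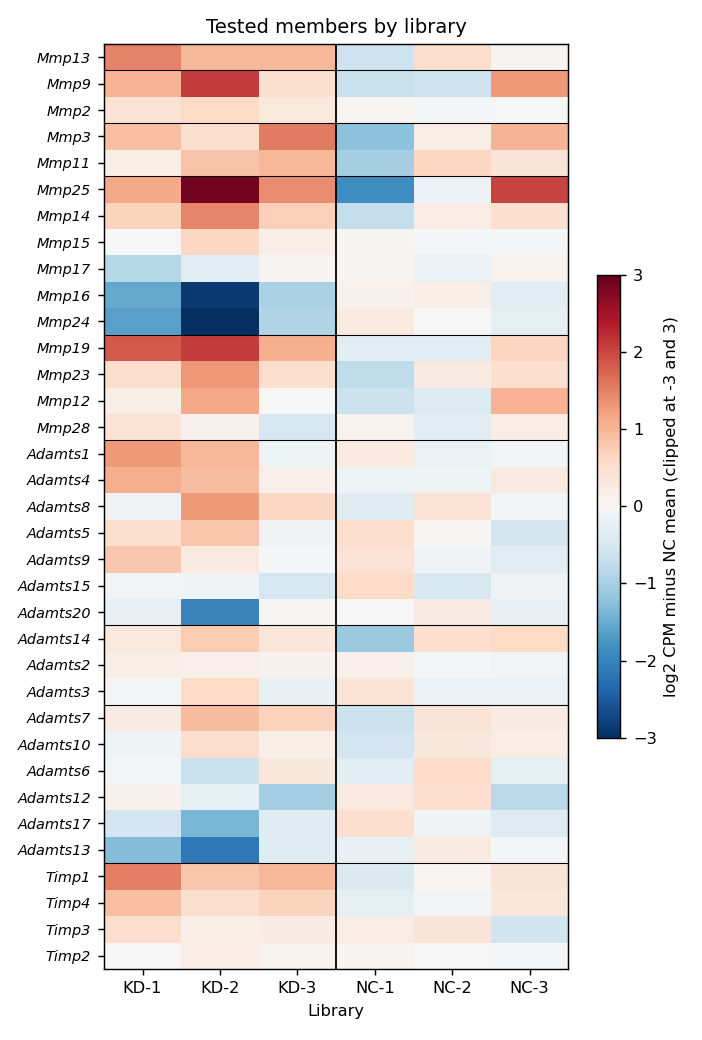
Log2 CPM of the 35 tested members minus the mean of the NC libraries (colour, clipped at -3 and 3), by library (columns) and role (blocks of rows). Mmp13, Mmp19, Mmp14, Timp1 and Timp4 are above the NC mean in all 3 KD libraries. So are many other members, among them Timp2, Adamts2 and Mmp12, whose groups overlap. KD-2 holds the highest Mmp25 (2.90) and the lowest Mmp16 (-2.87), with Mmp24 (-7.49) beyond the colour scale.

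The 4 Timps all had log2 fold changes above 0 (100%, against 50.6% of all tested genes). Timp1 and Timp4 had all KD values above all NC values (50%, against 15.3%). Timp1 (chromosome X, 20870166 to 20874735), an inducible inhibitor, had 719, 339 and 534 counts in KD and 175, 297 and 342 in NC. Normalised, these were 42, 26 and 29.4 CPM in KD and 10.8, 15.2 and 19.2 CPM in NC, with KD-1 highest and NC-1 lowest. The log2 fold change was 1.11 (SE 0.284, 95% interval 0.42 to 1.80, edgeR adjusted p = 0.276). It was 1.08 (SE 0.25, adjusted p = 0.24) without KD-2 and NC-1 and 1.28 (SE 0.35) with the neuron covariate. Timp4 (chromosome 6, 115241892 to 115252205) stood at 15.7, 12.2 and 13.4 CPM in KD and 6.85, 7.92 and 10.7 CPM in NC. For Timp4 the log2 fold change was 0.69 (SE 0.24, 95% interval 0.11 to 1.28, adjusted p = 0.276). It was 0.66 without KD-2 and NC-1 and 0.79 (SE 0.31) with the neuron covariate.

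Timp2 and Timp3 overlapped between the groups. Timp2 (chromosome 11, 118301069 to 118355740), which both inhibits Mmps and serves Mmp14 in the activation of pro-Mmp2, stood at 278, 323 and 296 CPM in KD and 290, 275 and 263 CPM in NC. On the log2 scale the difference was 0.12, with a 95% interval of -0.26 to 0.50. Timp3 (chromosome 10, 86300372 to 86349506), which binds to the matrix and also blocks Adamts proteases and Adam17, stood at 118, 94.9 and 97.3 CPM in KD and 95.5, 107 and 54.5 CPM in NC. Its log2 fold change was 0.27 (SE 0.271, edgeR adjusted p = 0.544), and NC-3 was the lowest library, without which the value was 0.04.

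Timp1, Timp3 and Timp4 each lie inside a synapsin gene on the opposite strand, Syn1, Syn3 and Syn2 in that order. Synapsins are neuronal vesicle proteins, and their counts went the other way. Syn1 had 12.7 ± 9.88 CPM in KD against 40.9 ± 16 in NC, and Syn2 had 14.4 ± 9.51 against 43.7 ± 12.9 CPM. Syn3 stood at 1.54 ± 0.139 against 2.41 ± 0.549 CPM. Exons shared with the host made up 0%, 21.3% and 1.53% of the annotated exon length of Timp1, Timp3 and Timp4.

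Across the 6 libraries, the members most like Timp1 in log2 CPM were Timp4 (Pearson r = 0.986), Mmp13 (0.931) and Mmp19 (0.873). Those most like Mmp2 were Mmp19 (0.938), Adamts4 (0.851) and Mmp14 (0.781), and those most like Timp2 were Mmp15 (0.943), Adamts3 (0.749) and Adamts8 (0.742). These values describe 6 points that share library, depth and cell content, and they include the difference between the groups.

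The seeds of the targeted microRNAs were searched for in the members' 3′ UTRs, since a microRNA binds messengers through bases 2 to 8. The mature 3p arms are shown from RefSeq (GRCm38.p6) because the sites below are defined by their seeds, in capitals.
mmu-miR-200b-3p: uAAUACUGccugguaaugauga
mmu-miR-200a-3p: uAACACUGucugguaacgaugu
The longest annotated 3′ UTR among a gene's GENCODE transcripts (GRCm38) was searched for CAGTATT, the match to miR-200b, and CAGTGTT, the match to miR-200a. Among the 35 tested members, 9 held the miR-200b match and 9 the miR-200a match, against 15.6% and 20.6% of 15820 tested genes with a 3′ UTR. The median 3′ UTR of the members was 2318 bases and that of all these genes 1332.5, so the members had more room for a match. A site is shown for 4 members described above (Mmp16 has a pair), with the seed match in capitals and the strand of the messenger.
Mmp16, miR-200b match, chr4:18117791-18117814, plus strand: aatttgtcctaacagCAGTATTgt
Mmp16, miR-200a match, chr4:18118951-18118974, plus strand: ataagcctgtttataCAGTGTTtg
Mmp15, miR-200b match, chr8:95374848-95374871, plus strand: cttttactagttctcCAGTATTtt
Mmp13, miR-200a match, chr9:7283215-7283238, plus strand: tattgtgtcaagagaCAGTGTTaa
Mmp24, miR-200a match, chr2:155818345-155818366, plus strand: aataaaacagaaataCAGTGTT
Mmp16, lower in KD, held both matches, and Mmp13, higher in KD, held 1. The 9 tested members with a miR-200b match had 6 log2 fold changes above 0 and 3 below (median 0.29). The 9 with a miR-200a match had 3 above and 6 below (median -0.50). The 19 tested members with neither match had 17 above and 2 below (median 0.58). Timp1, Timp2, Timp3, Timp4, Mmp2, Mmp9, Mmp14 and Mmp19 held neither. Fold changes of all tested genes were not split by match, so these medians have no background. The seed of miR-200b is shared by miR-200c and miR-429, and that of miR-200a by miR-141. A match is a description of the sequence and not a measured site.

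Proteins that activate, anchor or restrain these enzymes leaned the same way as the members. Of a list of 32 partners, 30 were tested, 25 had a log2 fold change above 0 (83.3%, against 50.6% of all tested genes) and the median was 0.49. None passed edgeR's threshold, and at an unadjusted p under 0.05 there were 9 higher (30%, against 8.7% of all genes) and 1 lower (3.33%, against 9.25%). The 6 with the smallest p, all with adjusted p = 0.276 in edgeR, were the following. Adam17, the sheddase of tumour necrosis factor, stood at 85.7 ± 11.4 against 49.4 ± 10.6 CPM (SD, n = 3 each). Furin, the convertase that removes the prodomain of membrane-type Mmps and Adamts proteases, stood at 398 ± 46.1 against 247 ± 34 CPM. Pcolce, which enhances procollagen C-proteinase, stood at 142 ± 13.2 against 99.8 ± 9.29 CPM, and the sheddase gene Adam9 at 191 ± 53.2 against 107 ± 17.7 CPM. Adamtsl3, a protein related to Adamts proteases without the protease part, stood at 17.2 ± 1.17 against 10.5 ± 2.57 CPM. Of these 6, only Serpine2, an inhibitor of serine proteases, was below 0, at 241 ± 11.8 against 369 ± 71.9 CPM. Reck, a membrane-anchored inhibitor of Mmps, stood at 26.4 ± 1.19 against 28.7 ± 6.22 CPM (fitted log2 fold change -0.12, SE 0.191).

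Proteoglycans and related matrix proteins, several of them cut by Adamts proteases, had mixed values. Of 9 genes tested, 6 had log2 fold changes above 0 (66.7%, against 50.6% of all tested genes), with a median of 0.18. The neural proteoglycans Ncan and Bcan were lower in every KD library, at 3.64 ± 2.48 against 12.0 ± 1.51 CPM and at 3.86 ± 3.29 against 18.4 ± 5.71 CPM. Vcan, versican, stood at 4.63 ± 3.41 against 2.76 ± 1.38 CPM and Bgn, biglycan, at 364 ± 66.2 against 277 ± 19.9 CPM. None of the 9 passed edgeR's threshold, the smallest adjusted p being 0.276 for Ncan.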

How the data were processed

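The deposited table gives raw counts per gene in each library. Beside them stand the authors' mean signal, a log2 fold change and an unadjusted p-value, per the file headers; dividing counts by median-ratio factors recovered the deposited mean to within 0.0142%. Among the tools in the submitters' processing notes are HTSeq 0.6.0, HISAT2 2.1.0 and Bowtie2 2.2.3, with the build GRCm38; DESeq, DESeq2 and TopHat2 are named too, without saying what each did. The strand setting and annotation release are not stated, and 12 members share exon bases with another gene.

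The 6 libraries were fitted together, KD against NC, with edgeR 4.0.16 (R 4.3.3): TMM, default low-count filter, quasi-likelihood test, two-sided, Benjamini-Hochberg over 18444 genes. Each standard error is the absolute log2 fold change over the square root of F, and the common biological coefficient of variation 40.9%. CPM are normalised. Alternatives were DESeq2 1.42.0 (54 genes without adjusted p), limma-voom 3.58.1, other size factors, no filter, left-out libraries, a replicate block and a neuron covariate. The scripts were tested on simulated data. Positions, exon lengths and 3′ UTRs came from GENCODE M21 (GRCm38). Counting error is only part of the spread, since reads carry no molecular identifiers.

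The members, lists and alternatives were chosen with earlier results of these data known. Described with values by rule were members past the threshold, those of at least 1 CPM with groups apart, the 4 Timps and the 2 most abundant of each role. Mmp25, Mmp17, Mmp28, Adamts4, Adamts13 and the other members, and Reck, Ncan, Bcan, Vcan and Bgn, were named after their values were seen. One gene of the family is not reported here.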

Additional observations from a re-analysis of the deposited data

How the results depend on the processing

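Counts of called genes over the whole table were 0 in edgeR and limma-voom, with each library left out in turn too, 347 in DESeq2 and 3 without KD-2 and NC-1. Of the members, DESeq2 called 1, Mmp19 (log2 fold change 1.67, adjusted p = 0.037), and the other settings 0. At an unadjusted p under 0.05 in edgeR, leaving out 1 library moved the members from 5 higher and 1 lower to 3 and 0 (KD-1 or NC-2), 5 and 2 (KD-2), 6 and 3 (KD-3), 4 and 1 (NC-1) and 8 and 2 (NC-3). Over all genes the higher counts ran from 881 (without KD-2) to 2308 (without NC-3) and the lower from 769 (without NC-2) to 2031 (without KD-3). The median log2 fold change of the tested members was 0.16 without KD-2 and NC-1 and 0.16 with the mature neuron covariate, and 0.19 to 0.42 with each library left out. Of 22 members described by rule, 4 changed sign with the covariate: Adamts10 (-0.14), Mmp12 (-0.37), Mmp15 (-0.0013) and Mmp24 (0.56). Without KD-2 and NC-1, 4 did: Adamts10 (-0.22), Adamts14 (-0.20), Adamts15 (0.02) and Mmp12 (-0.37). With each library left out in turn, ranges that crossed 0 were -0.06 to 0.32 for Adamts10, -0.07 to 0.59 for Adamts14, -0.53 to 0.07 for Adamts15 and -0.07 to 1.09 for Mmp12. The cause was not tested. With the replicate number as a block, the median was 0.40 and no call changed. Same-numbered libraries correlated at 0.305, 0.101 and -0.257 in their deviations from the group means, and differently numbered ones at -0.355 to 0.349. With 3 libraries per group, these values cannot decide whether the numbers pair them. At this depth 7 members, with 3 to 57 counts over the 6 libraries, were too low to test.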
